A study of Mus musculus with 8 samples.

Results

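The genes described here are those of the nuclear pore complex and of transport between nucleus and cytoplasm: nucleoporins, importins, exportins and the Ran cycle. They were taken by gene name (Nup, Kpna, Ipo, Xpo or Ranbp followed by a digit, and a short list of single names such as Kpnb1, Ran, Rcc1, Rangap1, Cse1l and Seh1l), without Nupr1. Where a gene had several probe sets, its probe set was chosen by the highest mean signal over the 8 arrays, so the level of a gene was used to select its probe set and no difference between times was. This gave 51 genes, with 103 probe sets that name 1 gene each, of 12393 genes with a probe set of their own. Of the 51 genes, 22 had 1 probe set and 29 had several, and the closest choice was that for Ipo5, whose probe sets had mean signals of 2286 and 2271. Tpr and Nutf2 were named by the rule and were not analysed here, nor were 2 probe sets that name Ipo4 or Xpo4 together with another gene.

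The series measured messenger RNA in MCE301, a single line of mouse colonic epithelial cells from mice with a transgene for a temperature-sensitive large T-antigen of simian virus 40. All cells carried this transgene, and the labels do not name a culture temperature. Sodium butyrate, an inhibitor of histone deacetylases made by gut bacteria, was given at 2 mM, and RNA was taken after 0, 6, 12 or 24 h. Each time had 2 arrays. Separate cultures are not stated for them. The p-values here set a difference between times against the spread of arrays within times, and that spread may be technical alone. Untreated cells at 6, 12 and 24 h were not analysed here, so butyrate and time in culture cannot be told apart in any comparison.

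The nuclear pore is a ring of nucleoporins set in the nuclear envelope. A scaffold of Y-shaped complexes and an inner ring holds a central channel of phenylalanine-glycine repeats, and a basket on the nuclear side and filaments on the cytoplasmic side receive cargo. Importins carry proteins in and exportins carry cargo out, and both bind the small GTPase Ran: Rcc1 loads Ran with GTP on chromatin, and Rangap1 with Ranbp1 and Ranbp2 triggers GTP hydrolysis in the cytoplasm. Several of these proteins, among them Ran, Kpnb1, Kpna2 and the Y complex, also act at the mitotic spindle and kinetochores, and many of their transcripts are known to be abundant in dividing cells.

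Signals are linear intensities, and changes are differences of log2(signal + 32) between times, given with the standard error of a limma fit over all 8 arrays; folds are on this scale, which makes changes of dim genes look smaller than they are. A gene was called higher or lower at an adjusted p under 0.05 over the 7340 genes tested. The 2% trimmed mean was 500.2 on all 8 arrays, which reflects scaling and does not measure how alike the arrays were. The arrays of a time correlated at r = 0.979 to 0.982 across probe sets, which are not independent replicates. Because the deposited signals are scaled to a common level, a change in the total RNA of a cell does not show in them, and in such bulk samples fewer cells of a type and less RNA per cell cannot be told apart. Of 12 markers of colonic epithelium, 9 had a signal above 144.7, the median of all values, on at least 1 array; Vil1, Cdx1 and Lgals4 were below it on all 8 arrays. The summed signal of the 12 markers was 55977.5 to 61908.2 at 0 h and 80542.6 to 100392.5 at 24 h, but they did not move together. Of the 9 tested, Krt20, Krt8, Krt18, Cldn7 and Cdh1 were called higher at 24 h, and Cldn3 and Cdx2 lower at both 12 and 24 h. The sum is weighted to bright genes such as Krt20, which had signals of 1119.4 and 1634.3 at 0 h and 12430.0 and 18156.3 at 24 h. None of the 7 fibroblast markers (summed signal 241.3 to 406.1 over all arrays) or the 4 endothelial markers passed this median on any array. Of 6 immune markers, only Cd68 did. It rose from 424.4 ± 1.13 (SD, n = 2) at 0 h to 1080.1 ± 55.6 at 24 h, a log2 change of 1.28, and the summed immune signal went from 573.4 to 639.7 at 0 h to 1290.6 to 1321.8 at 24 h.

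After 24 h with butyrate, 26 of the 50 genes tested were lower than at 0 h (52%) and 0 were higher, while 23.5% of all 7340 genes were lower and 24.6% higher. The count of 0 is from limma at the adjusted threshold. At an unadjusted p under 0.05 in the same fit, 0 were higher and 29 lower, beside 27.8% and 26.6% of all genes. The largest falls were those of Nup85, a scaffold nucleoporin, Rcc1, the exchange factor of Ran, Nup62, a channel nucleoporin, Cse1l, the exportin that returns importin alpha, and Ranbp1, a partner of Rangap1. Of the 26 genes, 15 were lower by at least 2-fold, as were 700 of the 7340 genes tested. The median log2 change of the 50 genes was -0.57 (quartiles -1.10 and -0.27, range -1.94 to 0.32), against 0.04 for all genes (quartiles -0.46 and 0.49), and 44 of the 50 had a change below 0. Proliferation markers moved with this: all 5 measured were lower at 24 h (Ccna2 by a log2 change of -3.31, Mki67 -2.73, Top2a -2.56, Cdk1 -2.44 and Pcna -1.48), and their summed signal went from 20556.8 to 22007.5 at 0 h to 5083.0 to 5576.2 at 24 h. Their part in the result was not tested, nor was that of the immune marker Cd68.

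The 50 genes tested are those that passed a filter on low signals; Ranbp17, a relative of the exportins, did not pass it, with signals of 67.8 to 140.1 over the 8 arrays. With no filter, 23 of the 51 genes were lower at 24 h (45.1%) beside 11.1% of 12393 genes, and Aaas, Ipo9 and Xpo5 were no longer called. Of the 51 genes, 45 had a signal above the median of all values on all 8 arrays, and 5 on some arrays only.

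**Figure D1:**
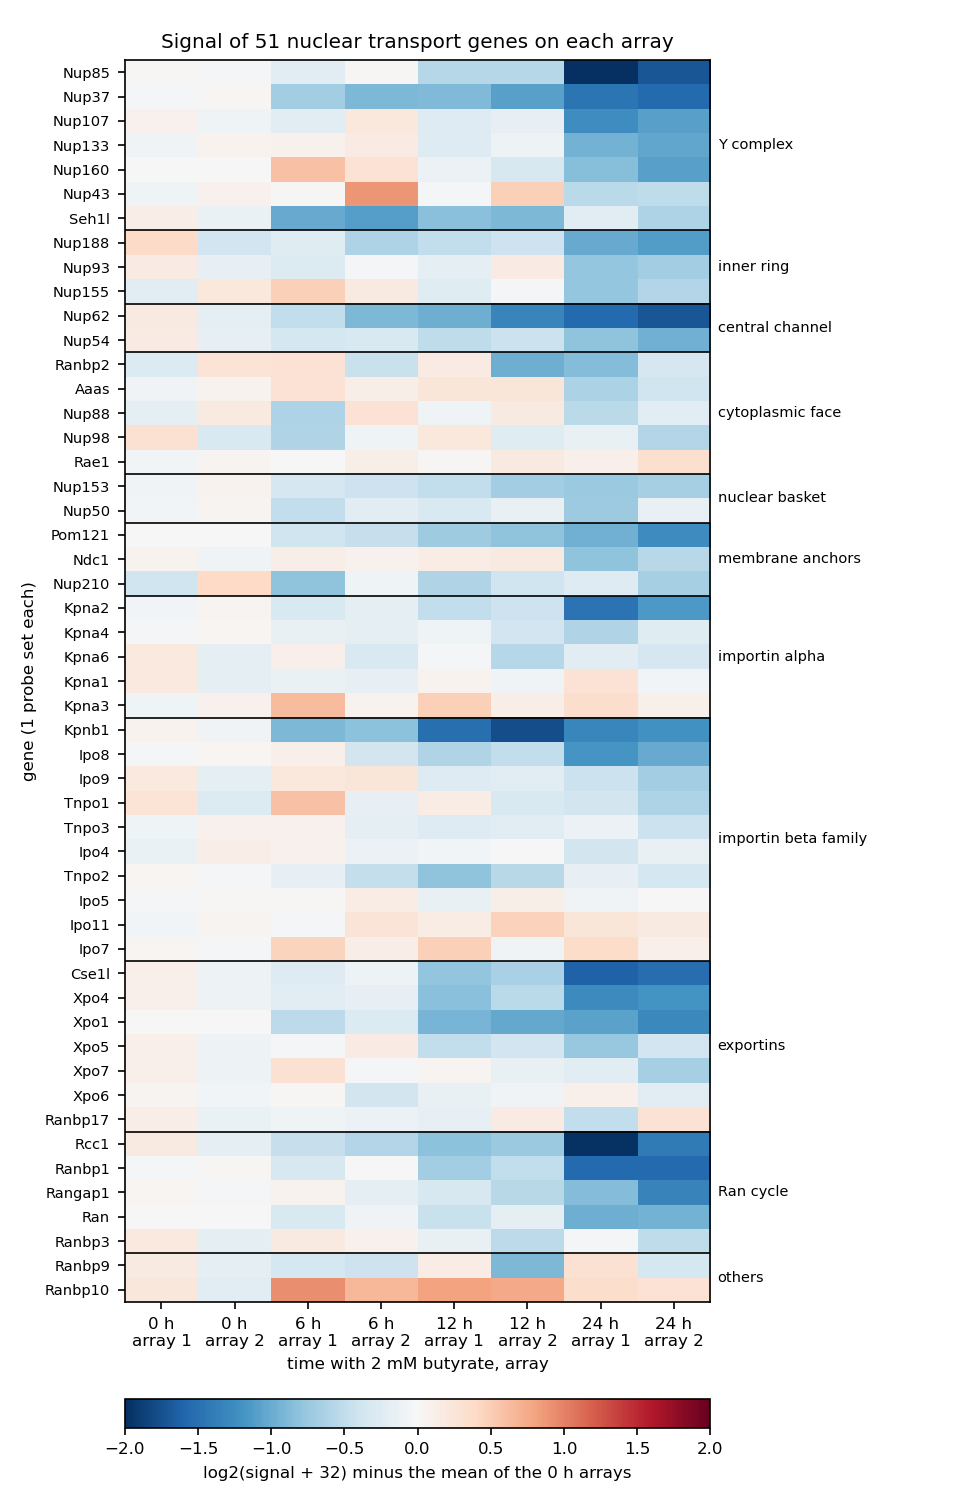
Signals of the 51 nuclear transport genes (rows, grouped by role) on each of the 8 arrays (columns, by hours with butyrate), as log2(signal + 32) minus the mean of the 0 h arrays; blue is below and red above the 0 h mean. The blue of the 24 h columns covers most rows of the Y complex, inner ring, central channel, exportins and Ran cycle, while importin alpha genes other than Kpna2 stay near white.

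Promoter sequences are shown for some genes lower at 24 h that hold the E-box of the MYC and MAX family or the site of NRF1. The E-box was not more frequent among lower genes: it stood in 4 of 23 with a promoter entry and in 4 of 17 others. The choice of these 2 short motifs does not rank them. GGGCGG (17 of the 23 and 12 of the 17) and CCAAT (9 and 9) stood in more of the lower genes than either. Sequences and coordinates are from RefSeq on GRCm38.p6, for windows from 250 bases before to 50 bases after a transcription start, and 40 of the 51 genes had an entry. In each, the stretch lies before the start, 5′ to 3′ on the strand of the gene, and capitals mark the motif. Nup188, Ran, Nup54 and Nup93 are the 4 genes lower at 24 h whose window holds the E-box, CACGTG, which reads the same on both strands.

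Nup188 (inner ring; chr2:30286310-30286415, plus strand, up to the base before the start): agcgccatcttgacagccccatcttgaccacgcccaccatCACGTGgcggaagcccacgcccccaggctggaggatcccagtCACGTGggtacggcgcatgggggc

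Ran (the GTPase; chr5:129019911-129020083, plus strand): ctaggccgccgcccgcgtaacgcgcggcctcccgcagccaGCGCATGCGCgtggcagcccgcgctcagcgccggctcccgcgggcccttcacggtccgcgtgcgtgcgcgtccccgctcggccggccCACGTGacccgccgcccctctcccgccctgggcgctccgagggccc

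Nup54 (channel; chr5:92435254-92435339, minus strand): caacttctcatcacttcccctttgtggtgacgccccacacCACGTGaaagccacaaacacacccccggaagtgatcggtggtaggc

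Nup93 (inner ring; chr8:94214349-94214434, plus strand): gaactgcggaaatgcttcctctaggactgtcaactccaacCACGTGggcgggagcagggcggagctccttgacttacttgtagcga

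The NRF1 motif, searched as GCATGCGC on both strands, stood in a window of 7 of the 40 genes (17.5%), against 6.93% of tested genes and 3.05% of all 27025 genes with a window; over all 32851 windows the share was 2.71%. It was found in 6 of the 23 genes with a window that were lower at 24 h (Rcc1, Ran, Nup62, Nup107, Ranbp1 and Xpo5) and in 1 of the 17 others, Nup50. The 3 stretches below were chosen after these counts were seen, and in Nup62 and Nup107, as in Ran above, the motif on one strand overlaps its match on the other.

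Nup62 (channel; chr7:44816028-44816087, plus strand): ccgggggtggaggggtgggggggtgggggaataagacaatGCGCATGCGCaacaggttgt

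Ranbp1 (Ran cycle; chr16:18248786-18248873, minus strand): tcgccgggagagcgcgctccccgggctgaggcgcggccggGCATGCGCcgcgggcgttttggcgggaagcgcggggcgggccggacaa

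Nup107 (Y complex; chr10:117792721-117792810, minus strand): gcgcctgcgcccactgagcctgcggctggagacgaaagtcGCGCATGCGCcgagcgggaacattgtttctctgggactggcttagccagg

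Of the 7 motifs searched on both strands, the E-box CACGTG stood in a window of 8 of the 40 genes (20%, beside 12.6% of tested genes and 8.09% of all genes): 4 of 23 genes lower at 24 h and 4 of 17 others. The element of cell cycle genes, TTTGAA, stood in 11 (27.5%, beside 13.6% and 20.2%). These were 7 of the 23 genes lower at 24 h (Kpna2, Ndc1, Nup37, Pom121, Ranbp1, Rangap1 and Rcc1) and 4 of the 17 others. The E2F motifs, searched only as the exact letters TTTGGCGC and TTTCGCGC, were rarer, and other forms of the site were not counted. TTTGGCGC stood in 0 of the 40 genes (1.27% of tested genes, 0.585% of all genes), and TTTCGCGC in 1, Ipo7 (0.927% and 0.374%). CCAAT, of NF-Y, stood in 18 (45%, beside 43.4% and 41.1%), which were 9 of the 23 lower genes and 9 of the 17 others. GGGCGG, of SP1, stood in 29 (72.5%, beside 73.3% and 38.2%), which were 17 of the 23 and 12 of the 17. Shares are of genes with the motif in at least 1 window, since some have several starts; over all windows they were 7.15%, 17.9%, 0.514%, 0.323%, 37.4% and 35.7% for the 6 motifs in this order. These matches describe letters in a window and show no binding.

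In the Y complex, the outer scaffold of the pore, 5 of 7 measured genes were lower at 24 h (71.4%, beside 23.5% of all genes), with a median log2 change of -1.0. Nup85 (probe set 1416073_a_at) had signals of 991.3 and 950.2 at 0 h, 831.9 and 983.7 at 6 h, 642.8 and 640.9 at 12 h, and 191.3 and 274.1 at 24 h. The 6 h arrays lay across the 0 h range, the 12 h arrays below it, and the 24 h arrays below all others. At 24 h the change was -1.94 ± 0.18, a 3.83-fold lower signal (adjusted p = 2.64e-05). Nup107 (1426751_s_at), with signals of 7987.1 and 7099.0 at 0 h, 6510.2 and 8677.5 at 6 h, 6294.4 and 6748.2 at 12 h, and 3152.1 and 3519.5 at 24 h, was low on the 24 h arrays only (-1.17 ± 0.18, adjusted p = 0.000489). Nup133 (-1.0 ± 0.15, adjusted p = 0.000509) and Nup160 (-0.97, adjusted p = 0.00121) were also lower at 24 h and not called before. Nup160 was 776.5 and 622.7 at 6 h, above its 0 h signals of 503.3 and 506.0, and 265.4 and 219.5 at 24 h.

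Nup37 and Seh1l, both small propeller subunits of the Y complex, were already lower at 6 h. Nup37 (1423969_at) had signals of 937.7 and 974.0 at 0 h, 579.4 and 498.5 at 6 h, 502.0 and 434.1 at 12 h, and 327.8 and 304.1 at 24 h, so no array with butyrate overlapped the 0 h arrays. Its change was -0.79 ± 0.16 at 6 h (adjusted p = 0.00925), -0.99 at 12 h (0.0012) and -1.51 ± 0.16 at 24 h (4.71e-05). Seh1l (1424200_s_at), which also acts in amino acid signalling, went the other way after 6 h. Its signals were 1650.3 and 1355.2 at 0 h, 726.2 and 676.8 at 6 h, 823.3 and 788.4 at 12 h, and 1268.0 and 961.2 at 24 h: lowest at 6 h, and at 24 h between the 12 h and the 0 h arrays. It fell by 6 h (-1.06 ± 0.18, adjusted p = 0.00441) and 12 h (-0.87, 0.00458); at 24 h the change was -0.43 (0.0748; 0.0315 with the replicate number as a block). The difference of 0.44 between 24 h and 12 h was not called (adjusted p = 0.211). Nup43 (-0.53, interval -1.12 to 0.06) was not called at 24 h; with the block its adjusted p was 0.049.

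All 3 measured inner ring genes and both measured channel genes were lower at 24 h, beside 23.5% of all genes. The channel genes had the lowest median of any role, -1.26, but it rests on 2 genes only (-1.64 and -0.88). Nup62 (1415926_at), which forms the channel with Nup54, had signals of 1698.7 and 1314.1 at 0 h, 1052.6 and 789.4 at 6 h, 742.6 and 580.5 at 12 h, and 485.7 and 432.3 at 24 h. Each time lay below the one before with no overlap. Its change was -0.69 ± 0.20 at 6 h (adjusted p = 0.0446), -1.15 at 12 h (0.00198) and -1.64 ± 0.20 at 24 h (0.000133; 3.11-fold lower). Nup54 (1438951_x_at) was lower at 24 h (-0.88, 0.00162), and at 12 h it was near the threshold (-0.46), called with the replicate number as a block (adjusted p = 0.0336) and under 4 other alternatives (0.0371 to 0.0468). Nup93 (1424291_at), which anchors the inner ring, had 1138.6 and 908.0 at 0 h, 836.5 and 986.1 at 6 h, 886.2 and 1142.8 at 12 h, and 579.6 and 615.6 at 24 h. Its first 3 times overlapped and the 24 h arrays lay below them (-0.74 ± 0.19, adjusted p = 0.0083). The scaffold partners Nup188 (-1.06 ± 0.24, 0.00445) and Nup155 (-0.68, 0.0144) were lower at 24 h as well, with 0 h arrays of Nup188 as far apart as 610.4 and 344.7.

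Of the 5 measured genes of the cytoplasmic face, 1 (20%) was lower at 24 h, beside 23.5% of all genes: Aaas, which is mutated in triple A syndrome (-0.52, adjusted p = 0.0225). Ranbp2 (1422621_at), the SUMO ligase of the cytoplasmic filaments, had 733.9 and 1088.5 at 0 h, 1095.1 and 648.6 at 6 h, 1006.6 and 441.0 at 12 h, and 477.0 and 698.9 at 24 h. The arrays of a time lay so far apart that its interval at 24 h, -1.42 to 0.22, allows a 2-fold fall. Nup98 (1439154_at), a repeat nucleoporin also found inside the nucleus, had 349.1 and 216.5 at 0 h, 170.3 and 259.1 at 6 h, 324.9 and 229.3 at 12 h, and 244.9 and 172.4 at 24 h, with overlap throughout (-0.37 at 24 h, interval -0.97 to 0.22). Rae1, its partner in mRNA export, was the single gene of the 50 whose mean signal was higher at every step, from 2195 ± 117 to 2544 ± 285 (0.21 at 24 h, interval -0.15 to 0.56, not called).

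In the nuclear basket, Nup153 (1452176_at), which docks import and export complexes, was lower at 12 h (-0.59, adjusted p = 0.0146) and 24 h (-0.70, 0.00445). Its signals were 653.7 and 728.0 at 0 h, 537.9 and 508.5 at 6 h, 482.9 and 412.8 at 12 h, and 400.1 and 425.3 at 24 h. All 6 arrays with butyrate lay below the 0 h arrays. Nup50, its importin-binding neighbour, was not called at 24 h (-0.44, adjusted p = 0.104; 0.0376 with the block). Of the membrane anchors, Pom121 (1427886_at) was called lower at 12 and 24 h, and its change at 6 h was not called (-0.43, adjusted p = 0.0999). Its signals were 2634.7 and 2645.3 at 0 h, 1993.6 and 1912.2 at 6 h, 1601.5 and 1505.7 at 12 h, and 1336.1 and 1086.6 at 24 h, in steps without overlap. The change was -0.75 at 12 h (0.00504) and -1.11 ± 0.16 at 24 h (0.000329). Ndc1 was lower at 24 h only (-0.67, 0.00566). Nup210 (1417585_at), a pore membrane protein that varies between cell types, was dim, with 121.7 and 237.3 at 0 h, 84.5 and 159.8 at 6 h, 102.7 and 122.8 at 12 h, and 137.7 and 96.6 at 24 h, and its interval at 24 h ran from -1.12 to 0.19.

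**Figure D2:**
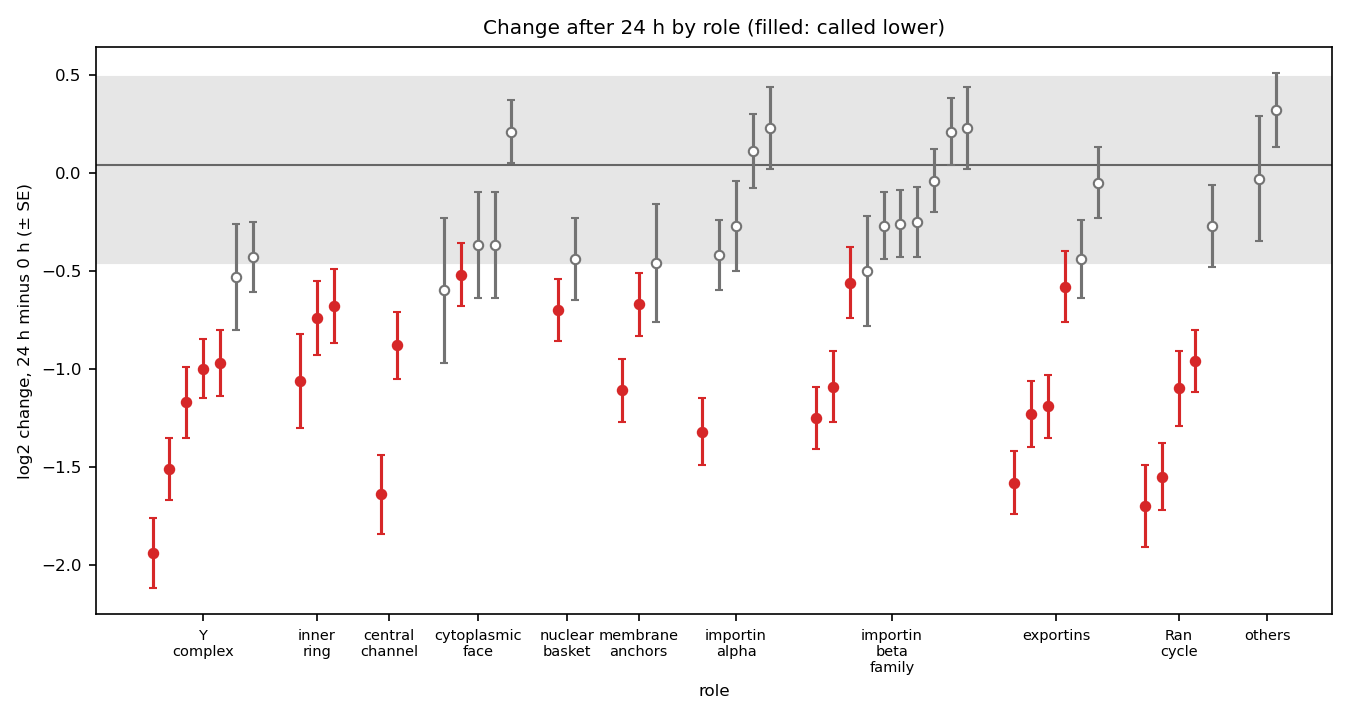
Log2 change (24 h minus 0 h, ± SE of the fit) of each of the 50 genes tested, grouped by role along the x axis; filled red points were called lower, open grey points were not called. The grey line and band are the median (0.04) and quartile range (-0.46 to 0.49) of all 7340 genes; points of the inner ring and central channel all lie below the band, those of importin alpha lie inside it except Kpna2.

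Among the 5 importin alpha genes, which bind the classical nuclear localisation signal, Kpna2 alone was called, lower at 24 h (20%, beside 23.5% of all genes). Kpna2 (1415860_at), the family member most tied to dividing cells, had signals of 4391.6 and 4740.9 at 0 h, 3686.4 and 3970.4 at 6 h, 3221.0 and 3424.6 at 12 h, and 1614.6 and 2035.6 at 24 h. Each time lay below the one before, and the 24 h change was -1.32 ± 0.17 (2.49-fold lower, adjusted p = 0.000146); at 12 h it was -0.45 (0.0561; 0.0253 with the replicate block). The others were Kpna1 (0.11, interval -0.30 to 0.53), Kpna3 (0.23, -0.25 to 0.70), Kpna4 (-0.42, -0.81 to -0.03, adjusted p = 0.0745) and Kpna6 (-0.27, -0.77 to 0.23). Their intervals lie above that of Kpna2, which ended at -0.95; the differences between genes were not tested.

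Importin beta, Kpnb1 (1448526_at), the receptor that carries importin alpha and its cargo through the pore, had the largest change of any of these genes at 12 h. Its signals were 2258.4 and 2062.7 at 0 h, 1145.4 and 1209.9 at 6 h, 735.4 and 610.4 at 12 h, and 856.3 and 918.4 at 24 h. All arrays with butyrate lay below the 0 h arrays, and the 12 h arrays were the lowest. The change was -0.86 ± 0.16 at 6 h (adjusted p = 0.00667), -1.64 ± 0.16 at 12 h (8.78e-05; 3.12-fold lower) and -1.25 ± 0.16 at 24 h (0.000156); the 24 h signals were above those at 12 h by 0.39, which was not called (0.215). Of the other import receptors of this family, Ipo8 (-1.09, 0.000839), which also binds Argonaute complexes, and Ipo9 (-0.56, 0.0243), a histone importer, were lower at 24 h. With Kpnb1 these were 3 of 10 (30%, beside 23.5% of all genes), a share near the background. Ipo5 (-0.04, interval -0.39 to 0.32), Ipo7 (0.23, -0.23 to 0.69), Ipo4 (-0.26, -0.64 to 0.12) and Ipo11 (0.21, -0.17 to 0.60) were not called, with intervals within 2-fold of no change. Tnpo2 (1425592_at), a transportin for RNA-binding proteins, was lower at 12 h alone (-0.67, 0.0134), with signals of 196.4 and 183.2 at 0 h, 165.7 and 126.9 at 6 h, 95.3 and 119.5 at 12 h, and 166.4 and 142.1 at 24 h. Its 24 h arrays lay above the 12 h arrays and overlapped the 6 h range. Tnpo1 (-0.50, adjusted p = 0.165) was called at 24 h only with the replicate block (0.0226).

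Of 6 exportins tested, 4 were lower at 24 h (66.7%, beside 23.5% of all genes), and the median change was -0.88. Cse1l (1448809_at), the exportin that recycles importin alpha, had signals of 2987.4 and 2595.8 at 0 h, 2328.1 and 2585.7 at 6 h, 1592.1 and 1758.0 at 12 h, and 881.7 and 942.7 at 24 h. The 6 h arrays lay just below the 0 h arrays and the later times well below (-0.72 at 12 h, adjusted p = 0.00606; -1.58 ± 0.16 at 24 h, 3.49e-05). Xpo1 (1418443_at), the exportin of proteins with a leucine-rich signal and the target of leptomycin B, had 3250.5 and 3303.9 at 0 h, 2279.8 and 2716.0 at 6 h, 1697.2 and 1590.7 at 12 h, and 1536.4 and 1317.0 at 24 h. Most of its fall was reached by 12 h (-0.98, 0.00137) and at 24 h it was -1.19 ± 0.16 (0.000252). Xpo4 (1421054_at), which carries SMAD3 and a translation factor, had 293.4 and 251.1 at 0 h, 226.4 and 239.6 at 6 h, 138.3 and 177.9 at 12 h, and 93.5 and 100.5 at 24 h (-1.23 at 24 h, 0.000222). It too went down without overlap, to signals below the median of all values, where folds are compressed by the pseudocount. Xpo5, the exportin of microRNA precursors, was lower at 24 h (-0.58, 0.023). Xpo6, which exports actin, was not called (-0.05, interval -0.46 to 0.36), and Xpo7 was not called either (-0.44, adjusted p = 0.0891; 0.0221 with the block).

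In the Ran cycle, 4 of 5 genes tested were lower at 24 h (80%, beside 23.5% of all genes), with a median of -1.10. Ran (1433569_x_at) had signals of 16315.1 and 16325.6 at 0 h, 13151.1 and 15490.7 at 6 h, 11918.3 and 14290.9 at 12 h, and 8304.9 and 8424.0 at 24 h. The 6 h and 12 h arrays overlapped each other, and the 24 h arrays lay below both (-0.96 ± 0.16, adjusted p = 0.000932; 1.95-fold lower). Rcc1 (1416962_at), the exchange factor, had 359.2 and 273.8 at 0 h, 218.5 and 198.3 at 6 h, 164.5 and 174.2 at 12 h, and 55.9 and 97.3 at 24 h. These steps did not overlap, and the change was -0.78 at 12 h (0.0145) and -1.70 ± 0.21 at 24 h (0.000117; 3.24-fold lower). Rangap1 (1451092_a_at), the GTPase activator, had 904.8 and 853.5 at 0 h, 920.9 and 767.3 at 6 h, 695.7 and 587.5 at 12 h, and 467.5 and 328.4 at 24 h. It was level to 6 h by its values and was called at 24 h (-1.10 ± 0.19, 0.00112), and at 12 h only with the replicate block (-0.44, 0.036). Ranbp1 (1422547_at), which helps Rangap1, had 10454.7 and 10685.7 at 0 h, 8469.3 and 10475.4 at 6 h, 6499.9 and 7474.0 at 12 h, and 3589.5 and 3564.3 at 24 h (-1.55 ± 0.17 at 24 h, 4.9e-05; 2.94-fold lower). Thus loader, GTPase and activator were all lower at 24 h, while Ranbp3, a cofactor of Xpo1, was not called (-0.27, interval -0.75 to 0.20).

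Ranbp10 (1424584_a_at), which shares the Ranbp name, binds microtubules and belongs to a ubiquitin ligase complex with Ranbp9, was the only member called higher. Its signals were 458.3 and 323.9 at 0 h, 764.9 and 632.0 at 6 h, 701.6 and 677.6 at 12 h, and 501.9 and 476.4 at 24 h. All 6 h and 12 h arrays lay above the 0 h arrays, and the 24 h arrays were only a little above the higher of them. It rose at 6 h (0.80 ± 0.19, adjusted p = 0.0182; 1.74-fold) and 12 h (0.79 ± 0.19, 0.00862) and was not called at 24 h (0.32, interval -0.10 to 0.73). The rise rests on this probe set: the other one of Ranbp10, with a mean signal of 421.1, changed by 0.04 ± 0.25 at 6 h and -0.13 ± 0.25 at 12 h, and neither was called. Ranbp9 was called at no time (-0.03 at 24 h, interval -0.74 to 0.68).

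**Figure D3:**
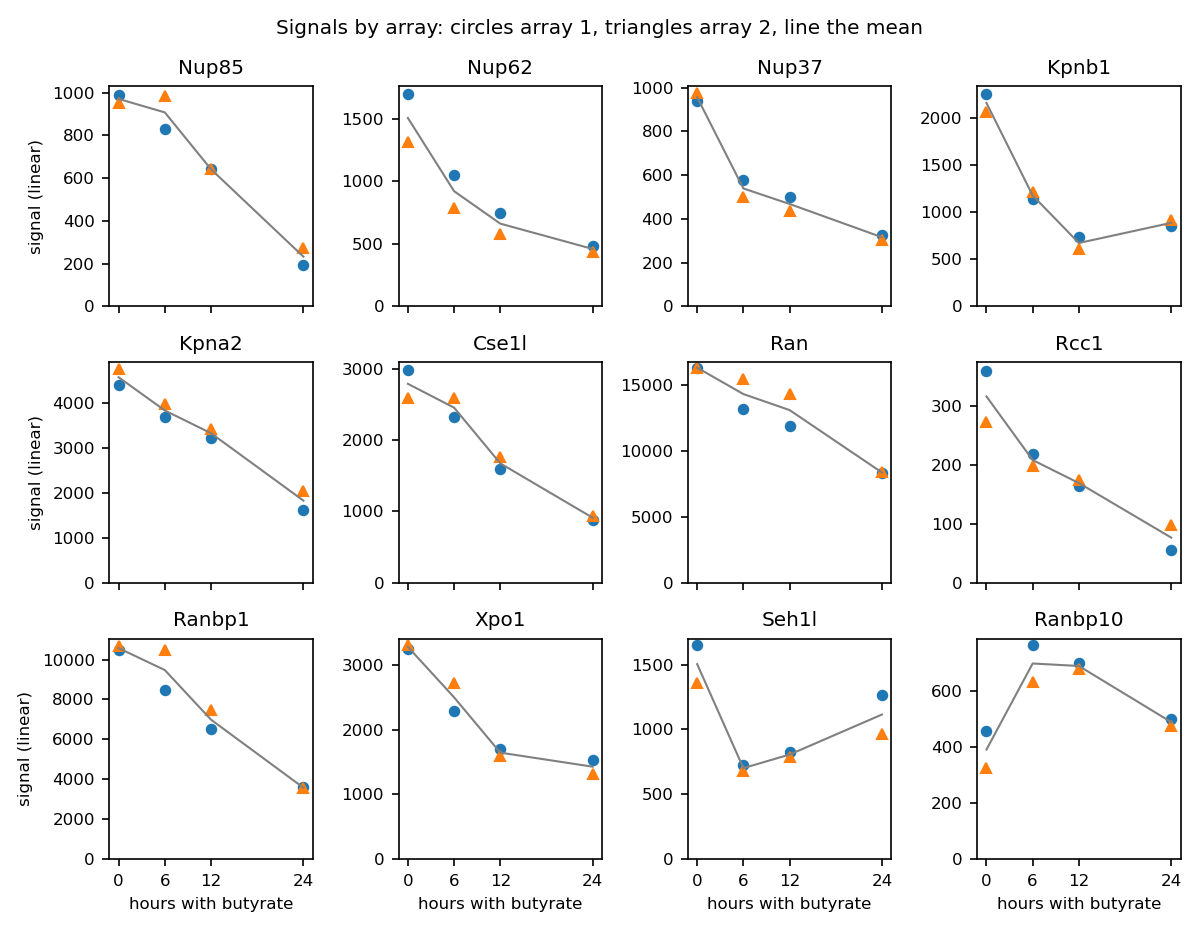
Linear signal of 12 genes against hours with butyrate; circles are array 1, triangles array 2 and the grey line their mean, with each y axis starting at 0. Nup85, Kpna2, Ran and Ranbp1 drop most between 12 and 24 h, Kpnb1 and Seh1l have their lowest signals at 12 h and 6 h, and Ranbp10 peaks at 6 and 12 h.

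The falls were called at different times. At 6 h, 4 genes were lower (Seh1l, Kpnb1, Nup37 and Nup62) and 1 higher (Ranbp10), 8% and 2% of the 50 genes, beside 6.68% lower and 9.06% higher among all genes, so the share of lower genes was near the background. At 12 h, 14 were lower (28%) and 1 higher, beside 17.5% and 18.1% of all genes; the median change was -0.28 for these genes and 0.03 for all. Of the 5 proliferation markers, 2 were lower at 6 h and all 5 at 12 h, and their part in these counts was not tested. Over the 3 comparisons, which share the 0 h arrays, Kpnb1, Nup37 and Nup62 were lower at all 3 times. A group of 9 was called lower at 12 and 24 h (Cse1l, Ipo8, Nup153, Nup85, Pom121, Ranbp1, Rcc1, Xpo1 and Xpo4), and 14 at 24 h only. Seh1l and Tnpo2 were lower at an earlier time and not called at 24 h, and 21 were called at no time. These patterns were not counted over all genes, and they depend on the threshold. Of those called at 24 h only, Kpna2 (-0.45, adjusted p = 0.0561 in limma) and Nup54 (-0.46, 0.0517) just missed a call at 12 h. Of the 50 genes, 36 had their lowest mean signal at 24 h (72%, beside 29.9% of all genes) and 21 had a lower mean at every step (42%, beside 16.3%).

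Between neighbouring times after 0 h, the step from 12 to 24 h held most of the calls, but it is longer than that from 6 to 12 h. The median change of the 50 genes was -0.38 over the longer step and -0.20 over the shorter, and rates per hour were not compared. At 24 h against 12 h, 10 genes were lower and 0 higher, beside 3.58% lower and 1.81% higher among all genes. At an unadjusted p under 0.05 in limma, 23 were lower and 3 higher (Kpnb1, Seh1l and Tnpo2), beside 10.5% and 8.9% of all genes. The 10 were Nup85 (-1.37, adjusted p = 0.0026), Ranbp1 (-0.96, 0.00859), Nup107 (-0.96, 0.0126), Cse1l, Ndc1, Nup133, Kpna2, Aaas, Rcc1 and Nup160. With the replicate block, Nup93 (0.0369), Ran (0.0262) and Rangap1 (0.0255) were called too. This count rested on single arrays: it was 4 without 12 h replicate 1 or 24 h replicate 2, and 1 without 12 h replicate 2 or 24 h replicate 1, Nup85 being the gene called whichever array was left out. Each of the other 9 lost the call for at least 3 of the 4 compared arrays when that array was left out (adjusted p 0.0527 to 0.193), and Nup160 also without either 0 h array (0.0562). At 12 h against 6 h, 1 gene was lower, Kpnb1 (-0.78, 0.029), and 0 were higher, beside 2.14% lower and 2.03% higher among all genes. With an unadjusted p under 0.05 in limma, 12 were lower and 0 higher, beside 11% and 9.5% of all genes. Kpnb1 lost this call without any 1 of the 4 arrays compared (adjusted p 0.0734 to 0.177), and with the replicate block 3 genes were lower, Nup160 (0.0269) and Xpo1 (0.049) being added.

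Calls against 0 h differed in how far they depended on 1 array. Of the 26 genes lower at 24 h, 21 were called under each of 17 alternative settings. The others lost the call without a single array: Aaas without 0 h replicate 1 (adjusted p = 0.0509) or 2 (0.118) or 24 h replicate 1 (0.14), Ipo9 without 0 h replicate 1 (0.188) or 24 h replicate 2 (0.149), Nup155 without 0 h replicate 2 (0.123) or 24 h replicate 1 (0.0846), Nup93 without 0 h replicate 1 (0.0734), and Xpo5 without 0 h replicate 1 (0.136) or 24 h replicate 1 (0.171). At 12 h, 7 of 15 calls held under each setting (Kpnb1, Nup62, Nup37, Xpo1, Seh1l, Pom121 and Cse1l), and 8 genes were lower on leaving out 0 h replicate 1 and 9 on leaving out 12 h replicate 1. Ipo8 (adjusted p 0.0923 to 0.158) and Nup85 (0.0991 to 0.131) lost the 12 h call without any 1 of the 4 arrays compared. Ranbp1 lost it without either 0 h array or 12 h replicate 1 (0.0684 to 0.111), Rcc1 without 0 h replicate 1 or either 12 h array (0.0523 to 0.113), and Nup153 without replicate 2 of 0 h (0.091) or of 12 h (0.105). Tnpo2 (0.0743 and 0.0946) and Xpo4 (0.0733 and 0.0813) lost it without replicate 1 of 0 h or of 12 h. Other genes gained a call. At 12 h these were Nup188 (0.0243) and Nup54 (0.0465) without 0 h replicate 2 and Ranbp9 (0.0443) without 12 h replicate 1. At 24 h they were Kpna4 (0.0475) and Nup50 (0.0233) without 24 h replicate 2, Seh1l (0.0403) and Xpo7 (0.0441) without 24 h replicate 1, and Nup43 (0.047) without either 6 h array. At 6 h only Seh1l held under each. Nup62 there had an adjusted p of 0.256 without 0 h replicate 1, 0.0684 without 0 h replicate 2, 0.221 without 6 h replicate 2 and 0.0582 without either 24 h array; Nup37 had 0.0605 when 0 h replicate 2 was left out and 0.0552 when 6 h replicate 2 was, and Kpnb1 had 0.052 without 0 h replicate 1. The rise of Ranbp10 was lost at 6 h without 0 h replicate 2 (0.13) or 6 h replicate 1 (0.0987), and at 12 h without 0 h replicate 2 (0.078). Of the 24 genes not called at 24 h, 20 had a 95% interval within 2-fold either way, 4 had one that allows a 2-fold fall, and 0 one that allows a 2-fold rise.

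Other probe sets of the same genes gave a second reading that the choice of probe set did not use, though on the same arrays. Among probe sets that passed the filter on low signals, 19 others belonged to 11 genes lower at 24 h; all 19 had a change below 0, 13 were called lower and 0 higher, when all named probe sets were tested together. A further 5, 1 each for Ipo8, Nup133, Nup62, Ran and Xpo1, did not pass the filter; their changes were -0.17, -0.41, 0.51, -0.15 and -0.40, on mean signals of 10.4 to 115.7. At 12 h, 13 of 14 others of called genes had the same direction and 7 were called, Ranbp10 being the gene that differed, and a probe set of Tnpo2 nearly as bright as the chosen one gave -0.06 against -0.67. At 6 h all 10 had the same direction and 1, of Nup62, was called; the others of Kpnb1 gave -0.50, -0.39 and -0.63 and those of Seh1l -0.34 to -0.88. Nup133 had a larger fall in another probe set (-2.03) than in the brightest (-1.0). The 3 other probe sets of Kpnb1 gave -1.36, -1.23 and -0.96 at 24 h, and at 12 h all 3 were called lower. Nup62 gave -1.57 and -1.25, and Nup85 -1.41. The 4 other probe sets of Ran that passed the filter ranged from -0.39 to -1.32, and 1 of them was called lower already at 12 h (-0.86, adjusted p = 0.0141). Ran, Nup54 and Ranbp9 are read here by probe sets with the suffix _x_at, and Nup107, Seh1l, Nup43, Xpo5, Kpna1 and Tnpo3 by ones with _s_at. In this design these suffixes mark probes that can match more than 1 transcript, so part of these signals may come from related sequences. Another probe set of Seh1l was called lower at 24 h (-0.77, 0.0225), as was one of Nup43 (-0.79, 0.0217). For genes called lower at 24 h, the others not called were those of Ndc1 (-0.17), Nup155 (-0.65) and Pom121 (-0.82), and 1 each of Nup54 (-0.23), Kpnb1 (-0.96) and Ran (-0.39). A brighter one of Nup54 was called lower (-0.66, 0.03). Ranbp9 is uncertain in size, with -0.03 in the chosen and -0.74 (0.0597) in another probe set.

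**Figure D4:**
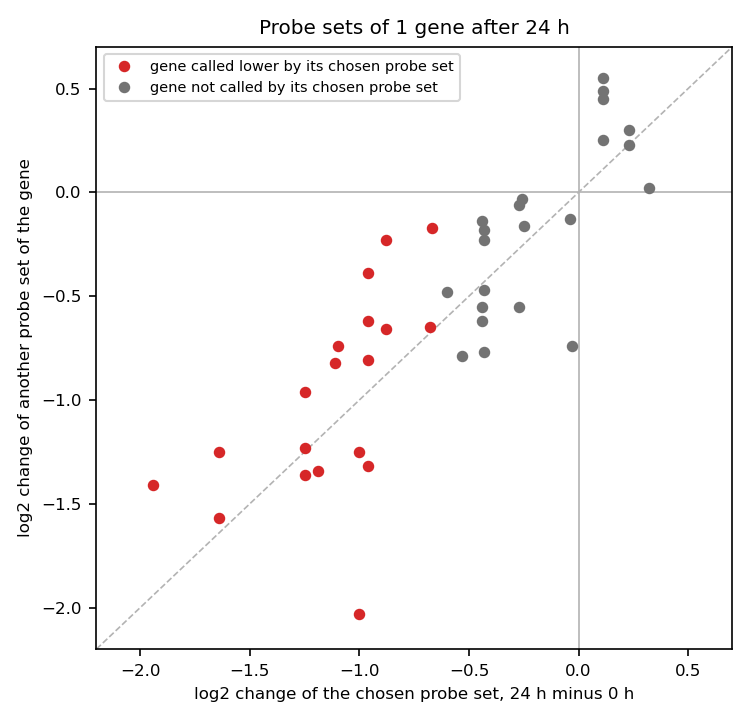
Log2 change at 24 h of the other probe sets of these genes that passed the filter on low signals (y axis) against that of the chosen probe set (x axis), with the line of equality dashed; red points belong to genes called lower by the chosen probe set. All 19 red points lie below 0 on both axes, with the lowest, a probe set of Nup133, at -2.03.

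Genes of connected pathways that the rule did not take were read from lists of 46 tested genes. At 24 h, 23 of them were lower and 3 higher, with a median of -0.44; at 12 h 21 and 2, and at 6 h 4 and 2. Among all genes, 23.5% were lower and 24.6% higher at 24 h, 17.5% and 18.1% at 12 h, and 6.68% and 9.06% at 6 h. The count of lower genes at 6 h is near that background. In mRNA export, 10 of 18 were lower and 0 higher at 24 h. Alyref, the adaptor that brings spliced mRNA to the export receptor, fell from 3996.7 ± 16.8 (SD, n = 2) at 0 h to 1050.8 ± 18 at 24 h (-1.90, adjusted p = 1.54e-05), and the THO subunits Thoc7 (-1.71), Thoc3 (-1.36) and Thoc1 (-1.22) fell as well. Of 12 lamina and inner nuclear membrane genes, 6 were lower and 1 higher. Tmpo, a lamina-associated polypeptide, fell from 2592.0 ± 304.3 to 643.9 ± 42.1 (-1.95, 2.39e-05), and Lbr (-1.30), Banf1 (-1.04) and Lmnb1 (-0.94) were lower, while Sun1, which links the nucleus to the cytoskeleton, was higher (0.44, 0.0353). In the SUMO cycle, whose enzymes sit partly at the pore, Sumo3 (-1.60), Senp6 (-1.26) and Senp1 (-0.72) were lower and Senp2 (0.56) higher, of 6 tested. Among 6 other pore and receptor genes, Xpot (-0.89), the exportin of transfer RNA, Ahctf1 (-0.73), which starts pore assembly on chromatin, and Nupl2 (-0.44) were lower. Rangrf, a Ran-binding factor, rose from 151.1 ± 30.9 to 332.2 ± 51.6 (1.0, adjusted p = 0.00212). Of 4 adaptors for RNA and ribosome transport, Phax (-0.57) was lower, a share near the background.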

How the data were processed

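Messenger RNA was measured on the Affymetrix Mouse Expression Array 430A from total RNA, per the labels. The deposited table gives a linear intensity for each of 22690 probe sets on 8 arrays; the software behind these values is not given in the sources read, the authors' labels included, and the equal 2% trimmed mean of 500.2 shows that they had been scaled. They were used as deposited. Array number limits the precision, with 2 per time, and per array 21.2% to 26.4% of signals were below the pseudocount of 32.

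Probe sets with 1 gene in the platform annotation (20380) were kept where at least 2 of 8 arrays exceeded 144.7, the median over all values, and each gene took its brightest, leaving 7340 genes. Log2(signal + 32) was fitted with limma 3.58.1 (R 4.3.3; lmFit and eBayes, prior df 6.37, residual df 4) on all arrays, with Benjamini-Hochberg adjustment over the 7340 genes in each comparison and a threshold of 0.05. The script was tested on simulated data. Intervals are 95% intervals of the fit.

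Across genes, array 1 minus array 2 at one time correlated with the same difference at another time (r = 0.125 to 0.382 for the 6 pairs of times). The numbers were therefore taken to pair the arrays, from the data and not from the labels, and a fit with the number as a block was run.

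Named with every array are the called genes with the largest change (10 falls and 5 rises against 0 h, 4 and 2 between neighbouring times) and fixed central genes such as Ran, Nup98, Nup210 and Ranbp2. Others named were chosen after their values were seen. The genes, lists and tests were chosen with earlier results of these data known. A planned comparison of protein sequences was not run.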

Additional observations from a re-analysis of the deposited data

Results flagged for a closer look

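For 11 genes, 2 neighbouring times differed in a test of that difference itself (limma, adjusted over 7340 genes), so that their change from 0 h was not the same at both times. Kpnb1 was lower at 12 h than at 6 h by a log2 change of -0.78. The other 10 were lower at 24 h than at 12 h: Nup85 (-1.37), Nup107 (-0.96), Ranbp1 (-0.96), Rcc1 (-0.92), Kpna2 (-0.86), Cse1l (-0.85), Ndc1 (-0.84), Nup133 (-0.82), Aaas (-0.76) and Nup160 (-0.75). Nup85 is the one of these 11 whose call held whichever array was left out. Groups of 2 arrays are too small to look for an array that stands apart within a time.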

How the results depend on the processing

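Pseudocounts of 16 and 64, no filter, a filter on the mean, quantile normalization, all named probe sets, a trended and robust fit, the 4 compared arrays alone, the replicate block and leaving out each array gave 17 alternatives. Of the calls of named genes, 0 turned to the opposite direction; some changes that were not called did turn sign, such as those of Ranbp2, Nup98 and Nup93 at 12 h and Nup107 at 6 h. The count lower at 24 h was 22 to 27 and at 12 h 8 to 14 on leaving out an array, and at 6 h 2 to 4. The count higher at 6 h was 0 with no filter and 0 to 1 on leaving out an array, as at 12 h (0 to 1). The count lower at 12 h against 6 h was 0 with no filter and with the 4 arrays alone, 2 with the trended and robust fit, 3 with the replicate block, and 0 to 1 on leaving out an array. The count lower at 24 h against 12 h was 1 with no filter and 1 to 10 on leaving out an array. With no filter the adjustment was over 12393 genes, and with all named probe sets over 11505, where the count was 10. What lowered the count with no filter was not tested. With the replicate block, 4, 17 and 31 genes were lower at 6, 12 and 24 h and 13 at 24 h against 12 h; no call was lost and no other call changed than those given with their values. Quantile normalization moved the median change of all genes by at most 0.0114. With 2 arrays a time and 1 cell line, no untreated cells at later times and no detection calls, small changes and dim genes such as Nup210 and Ranbp17 stay poorly measured.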
